A study of Saccharomyces cerevisiae with 8 samples.

Results

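Budding yeast with the SET2 gene deleted (set2Δ) was compared with wild type on 4 of the 8 arrays of a series on Saccharomyces cerevisiae. The arrays are those titled as set2 arrays 1 to 4, and each gives the log2 ratio of mutant over wild type for 6267 open reading frames (ORFs). The 4820 ORFs with a value on at least 3 of the 4 arrays, in both dye orientations, were tested. Both strains were harvested in log phase from YPAD, a rich glucose medium with added adenine, at 30 °C. Polyadenylated RNA was copied into Cy3- and Cy5-labelled cDNA and hybridised together on ORF microarrays. The mutant carried Cy3 on arrays 1 and 2 and Cy5 on arrays 3 and 4, with wild type in the other channel. The other 4 arrays compared a strain labelled as lacking SET2 and SIR4 (set2Δsir4Δ) with wild type in the same way. The labels do not give strain background, mating type, the number of cultures, or whether arrays shared an RNA preparation.

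Set2 is the enzyme that methylates lysine 36 of histone H3 in yeast. It binds the phosphorylated tail of elongating RNA polymerase II, so the mark is laid down over the bodies of transcribed genes. There it is read by proteins such as Eaf3, a subunit of the Rpd3S histone deacetylase, which keeps transcribed chromatin deacetylated and prevents transcription from starting inside genes. In RNA from a whole culture, fewer cells of a state and less RNA per cell cannot be told apart. An ORF probe sums full-length and internally started transcripts over the part it covers, and does not tell them apart.

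In set2Δ cells, 9 of 10 tested hydrophilin, small heat shock and other stress genes of 1 list were higher than in wild type. So were 5 of 6 trehalose genes, 8 of 12 glycogen genes and 12 of 17 genes of the tricarboxylic acid cycle. Of 110 ribosome biogenesis genes 71 were lower, as were 13 of 23 genes of the PAU, DAN and TIR cell wall families. In all, 1161 ORFs differed from wild type at an adjusted p under 0.05 (24.1% of those tested). Of these, 596 were higher (12.4%) and 565 lower (11.7%). A change of at least 1.5-fold was reached by 202 ORFs upward (4.19%) and 97 downward (2.01%), and one of at least 2-fold by 33 and 14. Values below are fitted log2(set2Δ / wild type) ± SE, from n = 4 arrays except where n = 3 is written. Higher and lower stand for an adjusted p under 0.05 in limma, with adjustment over all 4820 ORFs. No sample holds wild-type RNA alone, and the p-values reflect array-to-array spread alone, part or all of which may be technical.

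The deleted gene was read first. The SET2 spot had a value only on arrays 3 and 4, at -3.24 and -2.61, and had none on the arrays with the mutant in Cy3. It could therefore not be tested, and both values were the lowest on their arrays. The SET2 spot was at -1.64, -1.72, -1.94 and -1.48 on the 4 arrays labelled set2Δsir4Δ. The stretch of SET2 on the spot is not known from the labels.

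The arrays held 4613 to 4926 values, with medians between -0.09 and 0.05 and SDs between 0.38 and 0.53 on the log2 scale. Precision is limited by having 4 arrays. Of all ORFs on the array, 1241 had no value on any set2Δ array, and 769 of these had a value on at least 3 of the set2Δsir4Δ arrays. Among the tested ORFs, 412 had a value on 3 arrays and 4408 on all 4.

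Arrays of equal orientation correlated across ORFs at 0.76 and 0.68, and those of opposite orientation between -0.09 and 0.31. The orientation coefficient, the ratio with the mutant in Cy5 minus that with the mutant in Cy3, had an SD of 0.589 over the tested ORFs. The same SD was 0.281 on the set2Δsir4Δ arrays. In set2Δ, 888 ORFs had an orientation effect at an adjusted p under 0.05 (18.4%), and 243 of these were also called for strain. The widest were TCP1, a subunit of the cytosolic chaperonin (-3.01, n = 3), the ribosomal protein gene RPS20 (-2.68), OST4 of the oligosaccharyltransferase (-2.44), ATP20 of the ATP synthase (-2.25, n = 3) and ZDS1 (-2.21, n = 3). In the other direction stood the cell wall protease gene YPS3 (1.96), RPP2A of the ribosomal stalk (1.90), the cell wall gene HPF1 (1.88), the ribosome-bound protein gene ASC1 (1.67) and PLN1 of lipid droplets (1.65). For TCP1, 2 arrays were at 0.90 and 1.1 and the third at -2.01, so its fitted mean of -0.51 lay on no array.

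The strain calls rest on the balanced orientations. Of the 1161 calls, 291 had arrays of both signs and 118 had orientation means of opposite sign. Calls whose measured arrays all had the same sign numbered 409 higher and 461 lower, which are 8.49% and 9.56% of all tested ORFs. Called or not, 31.8% of tested ORFs had all measured arrays of 1 sign. Fitted with no orientation term, the counts were 38 higher and 25 lower, all of them among the 1161. Without array 2 they were 343 and 290, and without array 4 the lower calls were 337.

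**Figure D1:**
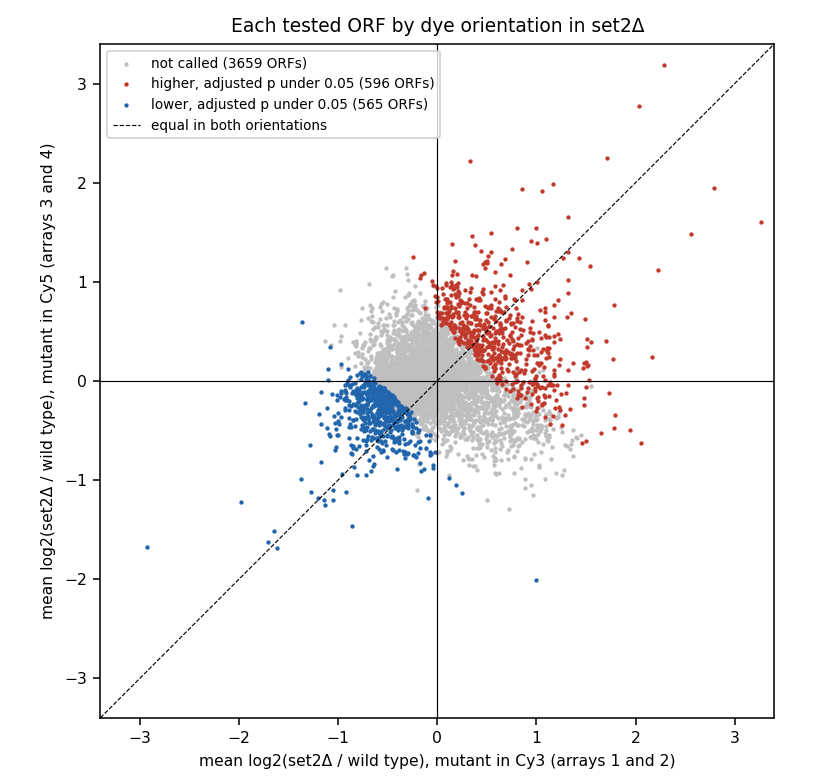
Each point is 1 of the 4820 tested ORFs, with its mean log2(set2Δ / wild type) over the arrays with the mutant in Cy3 on the horizontal axis and in Cy5 on the vertical axis. Red points are the 596 ORFs called higher, blue the 565 called lower and grey those not called, and the cloud is wide across the dashed line of equal values.

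The ORFs with the highest and lowest ratios among calls of 1 sign on every measured array were taken as the leading genes, 20 in each direction. The highest was YNR064C, an epoxide hydrolase, with 2.42, 2.16 and 3.19 on arrays 1, 2 and 4 (2.74 ± 0.13, n = 3, 6.67-fold, adjusted p = 4.10e-05). PUL3, which encodes a putative siderophore transporter, lies nearby on chromosome XIV and had 2.06, 2.01, 2.67 and 2.88 (2.41 ± 0.10, 5.30-fold, adjusted p = 5.45e-06). Between them PUL4, which encodes a putative transcription factor, had 0.81, 0.66, 0.98 and 1.16 (0.90 ± 0.10). These genes were above wild type on every array that measured them, with YNR064C and PUL3 above 2 throughout.

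LYS2 encodes the alpha-aminoadipate reductase of lysine synthesis and is also used as a selectable marker in yeast strains. It had 3.27, 1.24 and 1.98 on arrays 1, 3 and 4 (2.44 ± 0.16, n = 3). Without array 1 it could not be fitted, since array 2 had no value. Of 11 lysine genes tested, LYS1 (0.39 ± 0.10) and LYS21 (0.30 ± 0.09) were also higher and 0 were lower. LYS1 was not called without array 1 (adjusted p = 0.0631) or array 3 (0.0642), and LYS21 was not called without any 1 of the 4 arrays (0.0888 to 0.152), so that the lysine calls fell to 0 without array 1. The genes beside LYS2, the repair gene RAD16 (0.43 ± 0.10) and the transketolase gene TKL2 (0.51 ± 0.10), were higher too, the former not without array 4 (adjusted p = 0.0732).

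HSP12, a small membrane-protecting heat shock protein, had 3.0, 2.58, 2.48 and 1.42 (2.37 ± 0.16, 5.17-fold). GLK1, the glucokinase, had 2.13, 2.98, 1.30 and 1.67 (2.02 ± 0.14, 4.05-fold). YGP1, a secreted glycoprotein known to rise on nutrient limitation, had 1.6, 1.82, 2.53 and 1.96 (1.98 ± 0.12, 3.94-fold). All 3 were at least 1.30 on every array. The ORF YCL042W next to GLK1 was at 1.67 ± 0.14 (n = 3), while GID7 on the other side did not pass (0.45 ± 0.17, n = 3).

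The remaining leading increases were of enzymes, transporters and cell surface genes. Enzymes were the phosphoglucomutase PGM2 (1.49 ± 0.11), the mitochondrial aldehyde dehydrogenase ALD4 (1.49 ± 0.10), SNZ1 of vitamin B6 synthesis (1.34 ± 0.09), the hexokinase HXK1 (1.31 ± 0.11), the nicotinamidase PNC1 (1.27 ± 0.15) and the glycogen synthase GSY2 (1.18 ± 0.10), with the trehalose synthase subunit TSL1 at 1.26 ± 0.09. Transporters and their regulators were the peptide transporter OPT2 (1.58 ± 0.10), the high-affinity glucose transporter HXT7 (1.39 ± 0.14), the cadmium exporter PCA1 (1.35 ± 0.12, n = 3), AGP2, a membrane regulator of carnitine and polyamine uptake (1.27 ± 0.10), and YKR104W (1.25 ± 0.11). The cell wall mannoprotein CWP1 stood at 1.20 ± 0.11. Array 4 gave the lowest value for PNC1, at 0.29 against 1.23 to 1.96 on the other arrays. PCA1 could not be fitted without array 4, since array 3 had no value.

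The lowest ratio was that of COS10, a member of a subtelomeric family of membrane proteins that act in protein sorting to the vacuole, with -2.93, -1.51 and -1.85 on arrays 1, 3 and 4 (-2.30 ± 0.13, n = 3, 4.94-fold lower). AIF1, a mitochondrial homologue of a mammalian cell death factor, lies beside it and had -1.76, -1.54, -1.46 and -1.57 (-1.58 ± 0.10). ADH7, an NADPH-dependent alcohol dehydrogenase near an end of chromosome III, had -1.77, -1.47, -1.64 and -1.74 (-1.65 ± 0.10, 3.15-fold lower). These values were close to each other on all arrays apart from COS10, whose 3 values spanned more than 1 log2 unit.

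YIL175W, which has no entry among the protein-coding genes of the reference, had -1.79, -1.62, -1.65 and -1.6 (-1.67 ± 0.09). The meiotic recombinase DMC1 had -1.98, -1.09 and -1.35 (-1.6 ± 0.13, n = 3). The sorbitol dehydrogenase SOR1 had -1.32, -1.09, -1.12 and -1.24 (-1.19 ± 0.10). SOR1 has a close relative in the genome, so its spot may share signal.

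Further leading decreases were the near-identical thiamine precursor genes THI12 (-1.20 ± 0.13), THI5 (-1.18 ± 0.13) and THI11 (-1.13 ± 0.13), each with n = 3, the hexose transporter HXT16 (-1.07 ± 0.10), the sodium-phosphate cotransporter PHO89 (-1.02 ± 0.12, n = 3), the acid phosphatase PHO12 (-0.97 ± 0.09) and DIT1 of the spore wall (-0.88 ± 0.10). YDL038C (-1.19 ± 0.18), which has no place in the reference, and PRM7 (-1.16 ± 0.16) varied more between arrays, from -1.68 to -0.58 and from -1.99 to -0.64. The list closes with YIR042C (-1.17 ± 0.14, n = 3), DFP4 (-0.99 ± 0.11), LOH1 (-0.95 ± 0.13, n = 3), YOR338W (-0.87 ± 0.12, n = 3) and YBL029W (-0.85 ± 0.11). COS10, DMC1, THI5, THI11, THI12, YIR042C, LOH1, YOR338W and YCL042W could not be fitted without array 1, YNR064C without array 4 and PHO89 without array 3.

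**Figure D2:**
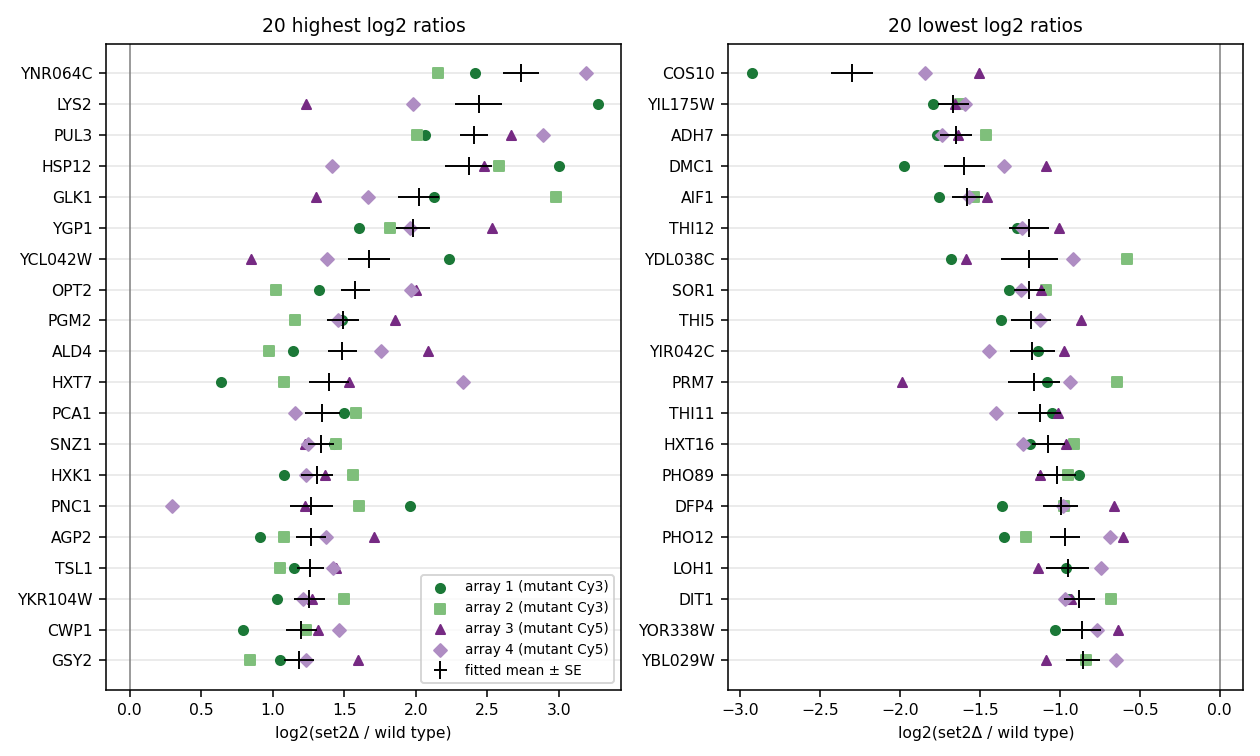
Values of the 20 highest and 20 lowest ORFs on each array, as log2(set2Δ / wild type), with the fitted mean ± SE as a black cross. Green symbols are arrays with the mutant in Cy3 and purple ones in Cy5, and every measured value of a leading ORF lies on 1 side of 0.

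Among the ORFs tested here, 266 had too few values on the set2Δsir4Δ arrays for a test there, and 43 of them were higher and 27 lower. ADH7, SOR1, DIT1 and YKR104W were in this group. So were NFT1, a vacuolar-type ABC transporter gene (0.98, 0.92, 0.88 and 0.96; 0.94 ± 0.09), and the flocculin gene FLO10 (0.93, 0.83 and 1.12; 0.95 ± 0.13, n = 3, not fitted without array 1). FLO10, NFT1 and YKR104W are neighbours at the right end of chromosome XI, and their arrays lay within 0.50 of each other for each gene. The kinase gene PFK26, whose product makes the glycolytic activator fructose 2,6-bisphosphate (0.72 ± 0.09), the succinate dehydrogenase flavoprotein SDH1 (0.78 ± 0.12) and the proline oxidase PUT1 (0.72 ± 0.10) were also among the higher. The ribosome assembly gene ENP2 (-0.63 ± 0.10) and PAU1 (-0.54 ± 0.10) were among the lower.

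Genes that place, read and remove H3 lysine 36 methylation were examined against the 24.1% of all tested ORFs that were called. Of 10 tested genes of the CTD kinases, the Paf1 complex and associated elongation factors, which act before Set2, 0 were higher and 3 lower, and the median was -0.16 against -0.01 over all tested ORFs. The 3 were CTK3, a subunit of the kinase that phosphorylates the polymerase tail (-0.37 ± 0.10), the elongation factor SPT5 (-0.37 ± 0.10) and the Paf1 subunit LEO1 (-0.37 ± 0.09). LEO1 had -0.38, -0.38, -0.32 and -0.40. All 3 lost the call without array 2 (adjusted p = 0.128 for CTK3, 0.0600 for SPT5 and 0.0674 for LEO1) and without array 4 (0.0960, 0.164 and 0.0872), and SPT5 also without array 1 (0.0973). The genes not called were CTK1 (-0.16 ± 0.12), CTK2 (-0.22 ± 0.10), CDC73 (-0.16 ± 0.10), CTR9 (-0.10 ± 0.09), SGV1 (-0.06 ± 0.10), SPN1 (0.12 ± 0.10) and BUR2 (0.23 ± 0.12).

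Of 11 tested readers and partners of the mark, 0 passed the limma test with all arrays, and 2 had an unadjusted p under 0.05. Without array 1 there was 1 lower, and without array 3 there were 1 higher and 1 lower. They include EAF3 (-0.17 ± 0.10) and RPD3 (0.11 ± 0.10) of the Rpd3S deacetylase, whose subunit genes SIN3 and RCO1 had too few values. The remodeler genes ISW1 (0.02 ± 0.10), IOC2 (0.00 ± 0.12) and IOC4 (-0.48 ± 0.18) and the acetyltransferase genes SAS3 (0.06 ± 0.10), YNG1 (-0.16 ± 0.10), NTO1 (-0.13 ± 0.13) and PDP3 (-0.15 ± 0.09) were in the list too. IOC4 was at -1.56 on array 2 and between -0.28 and 0.05 on the others. CHD1 (0.40 ± 0.17, n = 3) ranged from -0.74 to 1.14, and UME1 was at 0.06 ± 0.10.

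The demethylases of this mark moved in opposite directions. GIS1, also a transcription factor of the nutrient-limitation response, was higher at 0.95, 0.99, 0.08 and 0.54 (0.64 ± 0.11). RPH1 was lower at -0.42, -0.53, -0.17 and -0.54 (-0.42 ± 0.10), but not without array 2 (adjusted p = 0.0833) or array 4 (0.117). JHD1 (0.13 ± 0.10) and the H3 lysine 4 demethylase JHD2 (-0.06 ± 0.10) did not pass.

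Genes known for transcription starts inside the ORF when Set2 or its partners are missing were higher in 5 of 11 tested and lower in 0, with a median of 0.17. Between 2 and 3 of them were higher when an array was left out, and 1 with no orientation term. Over all tested ORFs, 12.4% were higher. Medians of the list were 0.23 and 0.41 on arrays 1 and 2, and 0.01 and 0.03 on arrays 3 and 4. PCA1 stood far above the rest, with 1.5, 1.58 and 1.16. The sphingoid kinase gene LCB5 (0.40 ± 0.10), the checkpoint gene DDC1 (0.40 ± 0.10), the flocculation regulator FLO8 (0.34 ± 0.09) and OMS1 (0.31 ± 0.09) were higher by less than 1.5-fold. OMS1 was at 0.81 and 0.65 on arrays 1 and 2 and at -0.10 and -0.11 on arrays 3 and 4. FLO8 was likewise at 0.58 and 0.69 against 0.01 and 0.07. LCB5 was not called without array 1 (adjusted p = 0.0667), DDC1 without array 2 (0.0875) or array 3 (0.0574), FLO8 without array 2 (0.0995), array 3 (0.0564) or array 4 (0.118), and OMS1 without any 1 of the 4 (0.0748 to 0.129). PCA1 kept its call without array 1 or array 2, with 1 array left in each orientation and its spread then taken from all ORFs, and could not be fitted without array 4. SYF1 (0.17 ± 0.10), RAD18 (0.01 ± 0.11), APM2 (-0.01 ± 0.10), SMC3 (-0.04 ± 0.11), VPS72 (-0.10 ± 0.14) and SPB4 (-0.14 ± 0.10) did not pass, and STE11, FMP27 and AVO1 had too few values.

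**Figure D3:**
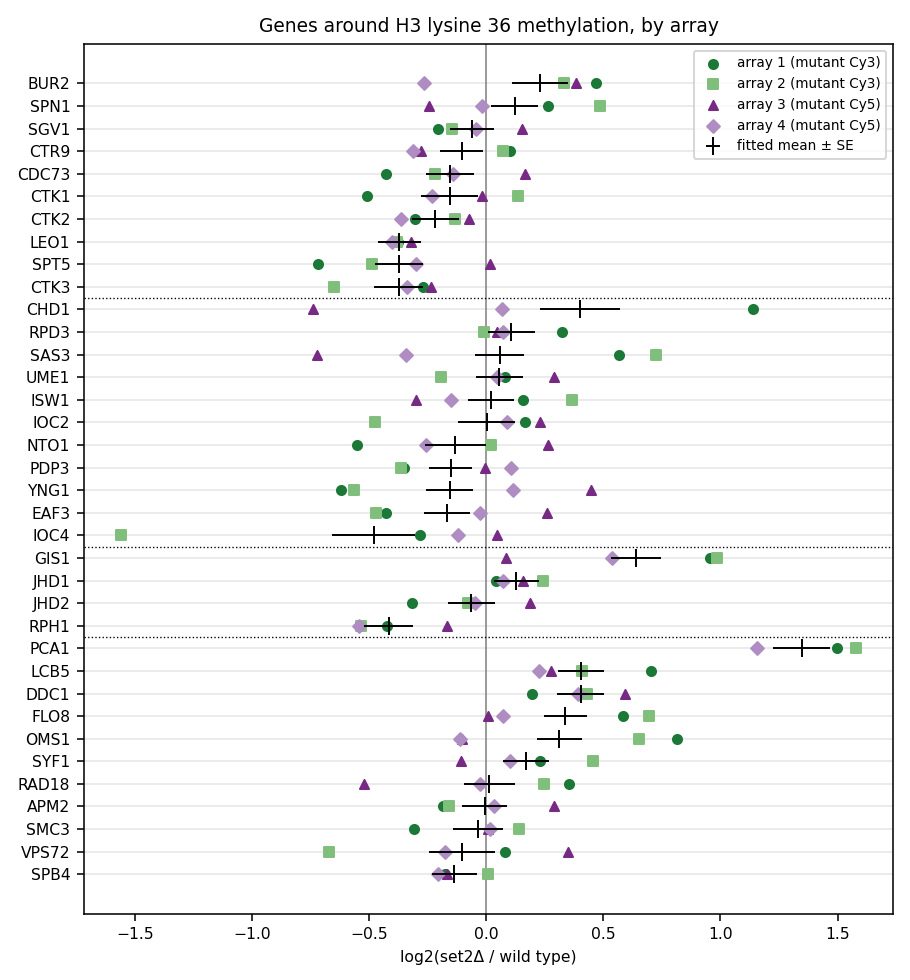
Values on each array, as log2(set2Δ / wild type), with the fitted mean ± SE, for tested genes of the CTD kinases and Paf1 complex, the readers, the demethylases and the genes with internal starts, from top to bottom between dotted lines. Green symbols are arrays with the mutant in Cy3 and purple ones in Cy5, and most genes straddle 0 while PCA1 lies above 1.1 on every array that measured it.

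Other chromatin genes showed single changes. The called shares were 9.09% each way for other methyltransferases and Sir proteins and 14.3% each way for histone chaperones. Both were near the shares over all tested ORFs, 12.4% higher and 11.7% lower. Of 11 tested genes of other histone methyltransferases and Sir proteins, SAS4, a subunit of the SAS histone acetyltransferase, was higher (0.59, 0.97, 0.89 and 0.74; 0.80 ± 0.10) and BRE2 of the H3 lysine 4 methyltransferase lower (-0.82, -0.47, -1.23 and -0.28; -0.70 ± 0.15). Among 14 histone chaperone genes, 2 were higher and 2 lower, with 0 higher without array 1, 2 or 4 and 1 lower without array 2, 3 or 4. NAP1, which handles H2A and H2B, fell most (-1.08, -1.59, -0.11 and -0.35; -0.78 ± 0.11) and differed between orientations by 1.11. Core histone genes were called in 0 of 10 by limma, where 2 had an unadjusted p under 0.05 and 1 was higher without array 1.

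Stress genes differed by list. Of 10 tested genes in a list of hydrophilin, small heat shock and other stress genes, 9 were higher and 0 lower (median 0.74). Besides HSP12 and YGP1 they include SPI1, a stress-induced cell wall protein, whose values of 1.0, 1.02, 0.99 and 1.0 (1.0 ± 0.09) hardly varied. HSP42, a chaperone that sorts aggregates, had 0.90, 0.49, 0.76 and 0.73 (0.72 ± 0.10), and PNS1 was at 0.88 ± 0.09. The aggregate-binding chaperone gene HSP26 stood at 0.14, 0.27, 0.28 and -1.0 (-0.08 ± 0.18) and was not called. Between 8 and 9 genes were higher without any 1 array, and 1 was lower without array 3.

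Heat shock chaperones followed, with 12 of 28 tested genes higher, 0 lower and a median of 0.24. HSP104, the disaggregase, had 0.74, 0.64, 1.45 and 1.02 (0.96 ± 0.11). The Hsp70 gene SSA4 (0.83 ± 0.13), KAR2 of the endoplasmic reticulum (0.70 ± 0.10), the Hsp90 activator AHA1 (0.70 ± 0.10) and the mitochondrial HSP78 (0.66 ± 0.11) were among them. An orientation effect was called for 11 of the 28. SSA2, for one, was at 0.15 and 0.14 with the mutant in Cy3 and at 1.09 and 0.84 in Cy5.

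Other stress lists held both calls and many genes that did not pass. Of 30 oxidative stress genes, 8 were higher, 2 lower and 20 not called, and the median was 0.01. Without array 1, 5 were higher and 1 lower. The cytosolic catalase CTT1 had 0.59, 0.37, 1.12 and 1.17 (0.81 ± 0.10) and the peroxiredoxin TSA1 had 0.74, 1.43, 0.64 and 0.59 (0.85 ± 0.12), while the peroxidase gene GPX2 was lower (-0.54 ± 0.11). Of 14 genes for glycerol and osmotic stress, 4 were higher and 0 lower, among them the glycerol 3-phosphate dehydrogenases GPD1 (0.63 ± 0.11) and GUT2 (0.67 ± 0.11).

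Genes for the storage carbohydrates trehalose and glycogen, made from glucose in slowing or stressed cells, were mostly higher. Of 6 trehalose genes, 5 were higher and 0 lower (median 0.65). Medians of this list were 1.1, 1.03, 0.14 and 0.32 on arrays 1 to 4, smaller with the mutant in Cy5. The synthase subunit TSL1 had 1.15, 1.05, 1.44 and 1.42, the phosphatase TPS2 had 1.34, 0.90, 0.50 and 0.63 (0.84 ± 0.11), and the degrading enzyme ATH1 was also higher (0.60 ± 0.10). Of 12 genes of glycogen and glucose phosphates, 8 were higher and 1 lower (median 0.47). The one lower, PGM1, was not called without any 1 of the arrays (adjusted p = 0.0537 to 0.170). PGM2, which makes glucose 1-phosphate, had 1.49, 1.16, 1.86 and 1.46, and GSY2 had 1.05, 0.84, 1.59 and 1.24. The nucleotide sugar enzyme UGP1 (0.90 ± 0.10), the synthase GSY1 (0.89 ± 0.12) and the branching enzyme GLC3 (0.58 ± 0.10) completed the route from glucose 6-phosphate to glycogen. All of PGM2, UGP1, GSY1, GSY2 and GLC3 were above wild type on all 4 arrays.

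The 3 largest increases in glycolysis were those of glucose-phosphorylating enzymes and their relatives. HXK1 had 1.08, 1.56, 1.37 and 1.23, GLK1 lay between 1.30 and 2.98, and EMI2, a glucokinase relative, had 0.48, 0.49, 1.51 and 0.89 (0.84 ± 0.12). Of 19 genes tested in the list, 9 were higher and 1 lower (median 0.30), and 5 were higher without array 2. The one lower was GPM2, a phosphoglycerate mutase relative (-0.74 ± 0.11). HXK2, the main hexokinase in glucose, and 7 other members, such as PGK1, ENO1 and CDC19, had too few values. Of 16 hexose transporter genes, HXT7 (0.64, 1.08, 1.54 and 2.33) and HXT2 (0.72 ± 0.18) were higher and 5 were lower, and HXT2 was not called without array 2 (adjusted p = 0.132). The 4 lowest, HXT16, HXT11 (-0.75 ± 0.10), HXT17 (-0.69 ± 0.09) and HXT9 (-0.64 ± 0.10), are similar in sequence to other family members and may share signal. HXT1 (-0.08 ± 0.19) and HXT3 (0.24 ± 0.12), the transporters of high glucose, were not called.

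Mitochondrial energy genes that passed the test were higher, with 1 exception among the lists of the cycle, the chain and ATP synthase. Of 17 tested genes of the tricarboxylic acid cycle, 12 were higher and 1 lower (median 0.52), and 11 or 12 were higher without any 1 array. The succinate dehydrogenase subunit SDH2 had 0.60, 0.95, 1.01 and 0.65 (0.80 ± 0.11), SDH1 had 1.17, 0.73, 0.39 and 0.82, and citrate synthase CIT1 had 0.50, 0.67, 1.07 and 0.85 (0.77 ± 0.10). All 4 subunit genes of this dehydrogenase were higher, with SDH4 at 0.68 ± 0.14 and SDH3 at 0.52 ± 0.10. Fumarase, FUM1, was the one lower (-0.40 ± 0.10), though not without array 1 (adjusted p = 0.0792) or array 4 (0.0823).

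Of 20 respiratory chain genes, 11 were higher and 0 lower (median 0.40). The external NADH dehydrogenase NDE1 had 0.46, 2.17, 0.83 and 0.94 (1.1 ± 0.22), with array 2 far above the others. The cytochrome bc1 subunits QCR8 (0.62 ± 0.10) and QCR2 (0.56 ± 0.10) and the oxidase subunit COX8 (0.56 ± 0.11) were higher on every array. Of 10 ATP synthase genes 4 were higher and 0 lower, with the inhibitor INH1 at 1.01 ± 0.13, and 1 was higher without array 2. The genes of the mitochondrial ribosome did not follow, with 2 higher and 4 lower of 65, a median of -0.04, and 0 lower without array 2 or 4.

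Genes for making ribosomes were called in 1 direction when all arrays were used. Of 110 tested ribosome biogenesis genes, 71 were lower and 0 higher (64.5% against 11.7% of all tested ORFs), with a median of -0.40 and medians of -0.49, -0.29, -0.43 and -0.38 on arrays 1 to 4. Of the lower genes, 69 were below wild type on every measured array. Between 48 and 58 were lower without any 1 array, and 1 was higher without array 4. The changes were moderate, with 14 reaching 1.5-fold. NSA1, of the large subunit precursor, had -0.86, -0.89, -1.11 and -0.34 (-0.80 ± 0.13). The helicase DRS1 had -1.11, -0.90, -0.64 and -0.44 (-0.77 ± 0.10), and the nucleolar protein NSR1 had -0.84, -0.87, -0.86 and -0.46 (-0.76 ± 0.10). Factors of both subunits were in the group, among them ERB1 of the large (-0.71 ± 0.09) and FAF1 of the small (-0.65 ± 0.09).

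RNA polymerases I and III, which make ribosomal and transfer RNA, were lower in 11 of 28 genes and higher in 2, with 7 lower and 0 higher without array 4 and 0 higher without array 2. They were led by RPC34 (-0.63 ± 0.10) and RPA49 (-0.62 ± 0.10). Ribosomal protein genes themselves were called in few cases, with 5 higher and 4 lower of 114 and a median of -0.04, and 1 higher and 0 lower without array 2. Without array 4 the lower calls were 1 and the higher 3. Their medians by array were -0.48, -0.09, 0.17 and 0.13, and 38 of them had a called orientation effect. The part of orientation in these counts was not tested.

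**Figure D4:**
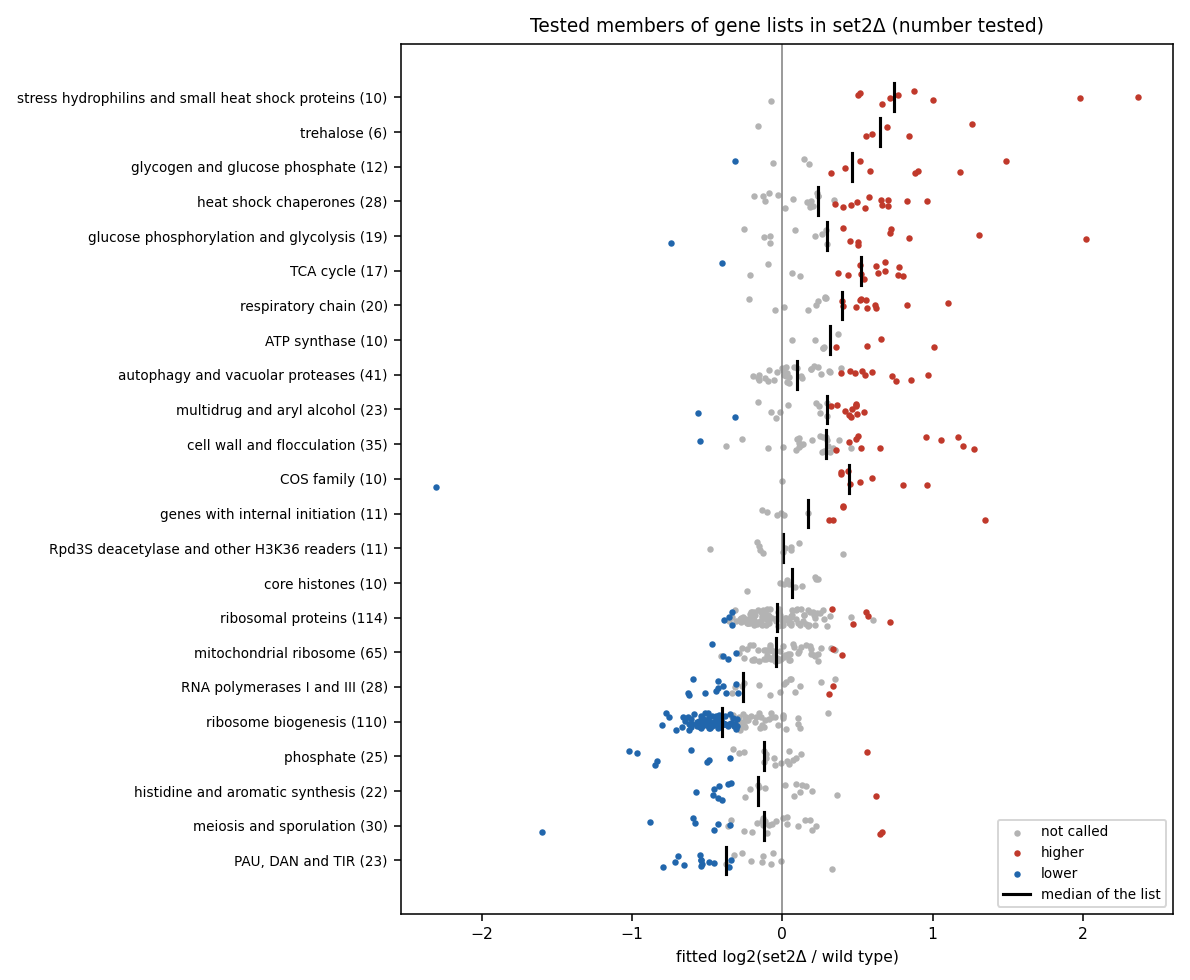
Each point is the fitted log2(set2Δ / wild type) of a tested gene in 1 of 23 lists, red where called higher, blue where called lower and grey otherwise, with the list median as a black bar. The 110 ribosome biogenesis genes have a median of -0.40 with none called higher. The medians of the stress and carbohydrate lists drawn lie above 0, though each of these lists reaches below it.

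Phosphate genes were lower in 8 of 25 tested and higher in 1. Besides PHO89, the acid phosphatases PHO12 (-1.35, -1.22, -0.61 and -0.69) and PHO11 (-1.08, -0.97, -0.59 and -0.75; -0.85 ± 0.10) fell on every array, and they resemble each other enough to share signal. PHM6 had -0.94, -0.49, -1.03 and -0.88 (-0.83 ± 0.11). The glycerophosphoinositol transporter GIT1 was lower too (-0.61 ± 0.12, n = 3), and could not be fitted without array 1. PHO4, which activates these genes, was at 0.07, -0.41, -1.0 and -0.65 (-0.50 ± 0.12) and was not called without array 2 (adjusted p = 0.0849). The vacuolar phosphatase PHO8, called higher (0.56 ± 0.16), was at 1.37 and 1.93 on arrays 1 and 2 and at -1.01 and -0.05 on the others, and was not called without array 2 (adjusted p = 0.176) or array 4 (0.133).

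Vitamin genes split. Of 23 genes for thiamine and vitamin B6, 4 were higher (17.4%) and 5 lower (21.7%). The shares over all tested ORFs were 12.4% and 11.7%. Without array 1 the lower calls were 1, since THI5, THI11 and THI12 could not be fitted. THI5, THI11 and THI12 are near-identical, so their spots may share signal. The B6 genes SNZ1 (1.42, 1.44, 1.23 and 1.25) and its neighbour SNO1 (0.65 ± 0.10) and the transporters THI72 (0.61 ± 0.10) and THI7 (0.45 ± 0.09) were higher. THI4, which makes the thiazole part of thiamine, was lower with THI5, THI11 and THI12, at -0.91, -0.98, -0.19 and -0.18 (-0.57 ± 0.09). Of the biotin genes, BIO2 was lower (-0.55 ± 0.10).

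Amino acid genes showed no single direction. Histidine and aromatic synthesis was lower in 8 of 22 genes and higher in 1, the aromatic transaminase ARO9 of catabolism (0.62 ± 0.11). Without array 2, 1 of these genes was lower and 2 higher, without array 1, 4 were lower, and without array 4, 3 were lower and 2 higher. HIS3 (-0.57 ± 0.12) was called lower, but not without array 2 (adjusted p = 0.0508). Genes that use poor nitrogen sources were higher in 7 of 30 and lower in 3, the latter 1 without array 1, 2 or 4, with the peptide transporter PTR2 at 0.58, 0.71, 1.11 and 1.25 (0.91 ± 0.10), the urea transporter DUR3 at 0.54 ± 0.09 and the allantoinase DAL1 at -0.55 ± 0.10. CAR2 of arginine breakdown was higher (0.70 ± 0.10), as was PUT1 of proline breakdown.

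Among 33 genes for metal uptake, 8 passed upward (24.2%) and 4 downward (12.1%), against 12.4% and 11.7% of all tested ORFs. There were 5 higher without array 2 or 4 and 2 lower without array 1. Medians of the list were -0.04, -0.05, 0.42 and 0.30 on arrays 1 to 4, above 0 only with the mutant in Cy5. The ferric and cupric reductases FRE2 (0.77, 0.74, 1.32 and 1.34; 1.04 ± 0.09) and FRE7 (1.0, 0.08, 1.64 and 1.35; 1.02 ± 0.15) led, with the copper ATPase CCC2 at 0.61 ± 0.09. ISU2 of iron-sulphur cluster assembly (-0.57 ± 0.10) and the cobalt and zinc transporter COT1 (-0.57 ± 0.10) were lower.

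Of 41 genes for autophagy and vacuolar proteases, 10 were higher and 0 lower. They include the vacuolar carboxypeptidase ATG42 (1.05, 1.29, 0.73 and 0.80; 0.97 ± 0.10), the vacuolar effluxer ATG22 (0.76 ± 0.12) and the membrane carrier ATG9 (0.73 ± 0.12), with the protease genes PRB1 (0.55 ± 0.11) and PRC1 (0.53 ± 0.11). Genes of the proteasome, the other main route of protein breakdown, were lower in 2 of 34 and higher in 0, with 0 lower without array 2 or 4.

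Cell surface genes went both ways by family. Of 35 cell wall and flocculation genes, 11 were higher and 1 lower (6 higher without array 2), with CWP1 at 0.79, 1.23, 1.32 and 1.46, CSS1 at 2.05, 0.59, 0.64 and 1.41 (1.17 ± 0.21) and PST1 at 0.50 ± 0.10. HPF1, at 0.91, -0.24, 2.22 and 2.22 (1.28 ± 0.16), was called although its arrays had both signs, and UTR2, a chitin transglycosylase, was lower (-0.55 ± 0.11). The PAU, DAN and TIR genes, a large family of similar cell wall proteins known from anaerobic growth, were lower in 13 of 23 and higher in 0, with a median of -0.38. PAU4 had -0.99, -1.24, -0.38 and -0.57 (-0.80 ± 0.10), and PAU2 had -0.57, -0.88, -0.84 and -0.57 (-0.71 ± 0.10). Their sequences are so alike that spots can share signal. Without array 2, 8 were lower, and 1 was higher without array 1 or array 3.

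Of 10 tested COS genes, 8 were higher (80%) and 1, COS10, lower (10%), against 12.4% and 11.7% of all tested ORFs. The member with the lowest ratio thus went against the rest. Medians of the list ran from 0.03 on array 1 to 0.74 on array 4. These are members of 1 gene family, so their spots may share signal. COS6 had 1.42, 1.59, -0.01 and 0.84 (0.96 ± 0.14), and COS3 had 0.79, 0.68, 0.17 and 0.75 (0.60 ± 0.12). Only 3 of the 8 were above wild type on every array, and without array 2 the higher calls were 3. Among 23 genes for drug exporters and aryl alcohol dehydrogenases, 11 passed upward and 2 downward, none by 1.5-fold, with the exporter ATR1 (0.55 ± 0.10) highest. They numbered 3 without array 2, and 1 was lower without any 1 array.

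Meiotic genes, silent in growing haploid cells, were lower in 7 of 30 tested (23.3%) and higher in 2 (6.67%). The shares over all tested ORFs were 11.7% and 12.4%. The ratios do not show how strong the signal of these spots was, and some may lie near background. Besides DMC1 and DIT1, the master regulators IME1 (-0.84, -0.34, -0.64 and -0.49; -0.58 ± 0.11) and NDT80 (-0.67, -0.51, -0.31 and -0.23; -0.43 ± 0.09) were lower. The phospholipase-related SPO1 was higher (0.66 ± 0.10). All of these had the same sign on every measured array.

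Genes that define mating type were read next, beside the 24.1% called among all tested ORFs. Of 8 a-specific genes, AGA2, the binding subunit of a-agglutinin, was lower at -0.84, -0.50, -0.82 and -1.0 (-0.79 ± 0.10), and ASG7 was lower at -0.43, -0.68, -0.32 and -0.55 (-0.50 ± 0.10) but not without array 2 (adjusted p = 0.0519). MFA1 (-0.10 ± 0.13), MFA2 (0.22 ± 0.12), STE2 (0.06 ± 0.14), STE6 (-0.16 ± 0.11), BAR1 (-0.11 ± 0.09) and AXL1 (0.17 ± 0.10) did not pass. The alpha-specific SAG1 (0.52 ± 0.10) and MF(ALPHA)2 (0.67 ± 0.14, n = 3, not fitted without array 4) were higher, and MF(ALPHA)1 and STE3 had too few values. Of 7 haploid-specific genes, GPA1 (-0.46 ± 0.10) and FUS3 (-0.45 ± 0.11) were lower, FUS3 not without array 1 (adjusted p = 0.0622) or array 3 (0.0677). FUS3 was at 0.14 and 0.35 with the mutant in Cy3 and at -1.35 and -0.93 in Cy5. STE18 (-0.30 ± 0.12), FAR1 (-0.19 ± 0.13), STE4 (-0.18 ± 0.11), NEJ1 (-0.11 ± 0.12, n = 3) and STE5 (0.03 ± 0.11) were not called. Of the cassette genes HMRA2 (-0.04 ± 0.11), MATALPHA2 (-0.02 ± 0.13) and HMLALPHA2 (0.21 ± 0.11), 0 of 3 were called by limma, with 0 at an unadjusted p under 0.05.

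Called genes lay near chromosome ends more often than elsewhere by simple count. Among 359 tested genes within the 15 outermost protein-coding genes of an end, 20.1% were higher and 17.3% lower. Among the other 4423 the shares were 11.6% and 11.2%. At the right end of chromosome XIV, MAN2 (-0.76 ± 0.12, n = 3, not fitted without array 4) and HXT17 (-0.78, -0.66, -0.66 and -0.63) lie beside AIF1 and COS10, so this end held a run of lower genes outward of the higher run around PUL3. At the right end of chromosome X, THI11, HXT16 and SOR1 were lower side by side. Each resembles other genes of the genome, so their spots may share signal and may not place the change at this end.

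Of the direct neighbours of the other leading genes, PDA1 beside DMC1 was higher (0.74 ± 0.11) and ISC10 was not called (0.03 ± 0.12). RDS1 beside ADH7 was lower (-0.41 ± 0.09), though not without array 2 (adjusted p = 0.0671) or array 4 (0.0527), and PAU3 was not called (-0.06 ± 0.11). Near HSP12, IES1 was at -0.03 ± 0.10. YNR061C beside PUL3 was at 0.13 ± 0.12, and YNR065C beside YNR064C was higher (0.38 ± 0.09) but not without array 2 (adjusted p = 0.0637) or array 4 (0.0858). Over all called genes, 15.9% of the tested neighbours of a higher gene were also higher and 10.8% were lower. For lower genes, 13.2% of neighbours were lower and 10.9% higher. Among all tested ORFs, 12.4% were higher and 11.7% lower, and the difference from these shares was not tested.

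Medians by chromosome moved with dye orientation. On chromosomes II, III and IV the medians were between 0.10 and 0.29 on arrays 1 and 2 and between -0.08 and -0.02 on arrays 3 and 4. On the other chromosomes the medians on arrays 1 and 2 were below 0. On chromosome II, 56 of 328 tested genes were higher and 17 lower, and on chromosome IV 106 and 52 of 619. The part of this shift in the calls of single genes there, LYS2, SAS4 and GIS1 among them, was not tested.

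The strains share SET2 deletion and differ by label in SIR4, so the groups were also set against each other, with an orientation term for each group. SIR4 was not measured on any set2Δ array, and on the arrays labelled set2Δsir4Δ its spot was at 0.04, -0.17, -0.21 and 0.05, close to wild type. Other values on the same arrays were far from wild type, with medians of -3.77 over 7 a-specific, -2.71 over 7 haploid-specific, 0.70 over 3 cassette, 1.28 over 10 COS and 0.81 over 3 YRF1 genes tested in both groups. Whether SIR4 was deleted was not tested. The stretch of SIR4 on the spot is not known from the labels either. Against wild type, 46.4% of 5469 ORFs tested on the latter arrays were called. In the test of the difference, over 4554 ORFs, 166 were higher in set2Δ (3.65%) and 108 lower (2.37%). The widest differences were in mating genes, whose levels on the arrays labelled set2Δsir4Δ were far below wild type. MFA2, which encodes a-factor, was at 0.05, 0.69, 0.23 and -0.09 in set2Δ and at -6.35, -5.74 and -7.10 on the other arrays, and the difference was 6.61 ± 0.29. The differences were 5.65 ± 0.14 for the protease BAR1, 5.53 ± 0.18 for the alpha-factor receptor STE2, 3.87 ± 0.30 for the kinase FUS3 and 3.70 ± 0.14 for the G protein subunit GPA1.

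The 5 ORFs furthest below the set2Δsir4Δ arrays all lie among the 15 outermost genes of a chromosome end. GIT1 was at -0.72, -0.51 and -0.48 in set2Δ and at 1.84, 1.35, 1.49 and 1.69 on the other arrays, a difference of -2.20 ± 0.12. The differences were -1.87 ± 0.13 for COS10, -1.87 ± 0.15 for YIR042C, -1.77 ± 0.11 for AIF1 and -1.68 ± 0.12 for RDS1. These 5 were below wild type on every set2Δ array that measured them. The counts varied with the arrays used, from 71 to 357 higher and from 39 to 198 lower when 1 of the 8 arrays was left out.

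**Figure D5:**
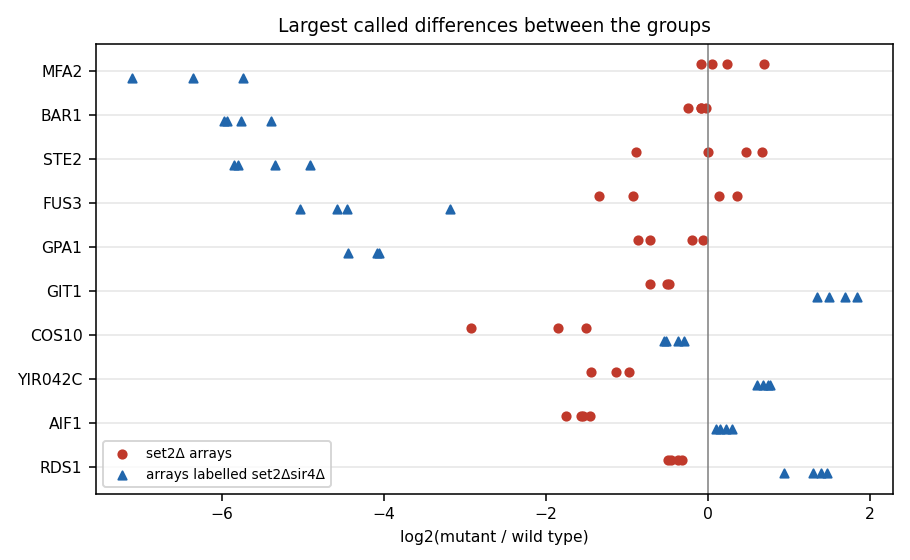
Values on each array, as log2(mutant / wild type), for the 5 ORFs furthest above and the 5 furthest below the arrays labelled set2Δsir4Δ, with set2Δ arrays as red circles and the others as blue triangles. The ORFs were chosen for the size of this difference, which runs from 6.61 for MFA2 to -2.20 for GIT1.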

How the data were processed

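The authors deposited 1 table of log2 ratios of mutant over wild type for 8 two-colour arrays of yeast ORFs. The base of the log and the turning of the arrays with the mutant in Cy3 were read from the spacing of the values. Background correction and normalization are not given in the sources used here. The values were used as deposited. ORFs with at least 3 values and both orientations were fitted with limma 3.58.1 in R 4.3.3 (lmFit and eBayes) on the set2Δ arrays alone, as a mean with an orientation term, and p-values were adjusted by Benjamini-Hochberg over all tested ORFs. The difference between groups was fitted on all 8 arrays with an orientation term for each. The procedure was tested on simulated data. The members and gene lists were chosen with earlier results of these data known. Named are the 20 highest and 20 lowest called ORFs of 1 sign on every array, members of the lists, the 5 widest orientation effects each way and group differences, and neighbours. Gene names and order come from the RefSeq R64 annotation, which held 5856 of the 6267 ORFs. Alternatives were centring, scaling, quantile normalization, no orientation term, other filters, array weights, robust eBayes, a replicate block, a stricter threshold and leaving out each array.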

Additional observations from a re-analysis of the deposited data

Results flagged for a closer look

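Among 189 tested genes named above with values on all 4 set2Δ arrays, some had 1 array apart from the others. That array stood further off than Dixon's test allows at its 95% level. Chance gives this in about 1 of 20 groups, and the genes listed here were no larger a share than that. The values that stood apart, with the nearest other array, were HSP26 at -1.0 (nearest 0.14), AHA1 at 0.44 (nearest 0.77), DIT1 at -0.68 (nearest -0.93), NSR1 at -0.46 (nearest -0.84), YNR065C at 0.29 (nearest 0.40), HIS3 at -0.14 (nearest -0.68) and STE4 at -0.58 (nearest -0.08).

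For other named genes, the effect in set2Δ differed from that on the arrays labelled set2Δsir4Δ by limma's test of the difference, at an adjusted p under 0.05. The log2 difference, set2Δ minus set2Δsir4Δ, was positive for the a-specific and haploid-specific mating genes MFA2 (6.61), BAR1 (5.65), STE2 (5.53), FUS3 (3.87), GPA1 (3.70), STE4 (3.67), STE6 (3.13), AGA2 (2.98), FAR1 (2.52), NEJ1 (2.43), AXL1 (1.99), STE5 (1.44), ASG7 (1.29) and STE18 (0.66). It was negative for the mating cassette genes MATALPHA2 (-0.72) and HMRA2 (-0.59). Of the remaining genes it was positive for HSP26 (1.5), HXT7 (1.03), PCA1 (0.95), LYS2 (0.84), ATG22 (0.73), PDA1 (0.68), AGP2 (0.64), PUL3 (0.61), YNR064C (0.60), OMS1 (0.57) and FLO8 (0.46). It was negative for GIT1 (-2.20), YIR042C (-1.87), COS10 (-1.87), AIF1 (-1.77), RDS1 (-1.68), HPF1 (-1.48), YIL175W (-1.41), CSS1 (-1.19), DAL1 (-0.99), THI11 (-0.90), THI12 (-0.88), THI5 (-0.84), COS3 (-0.73), PAU4 (-0.67), HSP78 (-0.67), PAU2 (-0.60), TSL1 (-0.58), CTT1 (-0.57), NAP1 (-0.56), ATR1 (-0.55), PHO4 (-0.51) and HXT9 (-0.49). Both groups were set against wild type.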

How the results depend on the processing

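With no orientation term, 38 ORFs were higher and 25 lower in set2Δ, the same numbers at 1.5-fold. Fitted on all 8 arrays with an orientation term for each group, the counts were 841 and 887. At an adjusted p under 0.01, 237 were higher and 186 lower, and 24 had an orientation effect. Leaving out 1 array gave 343 to 651 higher and 290 to 569 lower, 170 to 245 and 95 to 125 at 1.5-fold, and 224 to 1017 with an orientation effect. The lowest of these counts came without array 2, except 95 lower at 1.5-fold, which came without array 4, where 337 ORFs were lower in all. For the difference between groups, a common orientation term gave 74 higher and 38 lower, no orientation term 54 and 25, an adjusted p under 0.01 70 and 41, and leaving out 1 array 71 to 357 and 39 to 198. The cause of these shifts was not tested. Whether array numbers pair arrays of the groups could not be told. Same-numbered arrays deviated together at r = 0.207, -0.16, 0.126 and -0.206. Arrays 1 and 3 have the same dye orientation in both groups, and arrays 2 and 4 opposite ones. Over all pairs of arrays between the groups, r was positive at equal orientation and negative at opposite orientation. With array number as a replicate block and a common orientation term, 322 ORFs were higher and 274 lower in set2Δ, and 46 and 15 for the difference. Centring the arrays on their medians gave 673 higher and 504 lower. No named gene with a call changed direction under any alternative that was run. The comparisons of promoter motifs and coding length were not run.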
